A study of Mus musculus with 8 samples.

Results

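The Zfp genes examined here are the protein-coding mouse genes named Zfp with a number that lie on chromosomes 2, 7, 8, 13 and 17. The names were read from the RefSeq annotation of mm10, and a pair of symbols was set aside by the rule. This gave 211 genes of 21631 protein-coding genes on the 19 autosomes and chromosome X, with 24 on chromosome 2, 90 on chromosome 7, 24 on chromosome 8, 32 on chromosome 13 and 41 on chromosome 17. Genes whose midpoints lay under 500 kb from the next such gene were joined. In this way 158 genes fell into 19 clusters of 3 to 23 genes, 10 genes formed 5 pairs, and 43 genes stood alone and are called single genes. The choice used names and positions and no timing value.

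The study measured replication timing in mouse embryonic stem cells, cultured cells from the early embryo that self-renew and can form all its tissues. Control cells were compared with cells taken 2 days after treatment with dTAG, a small molecule that sends a tagged protein to degradation, here YY1. The labels name no clone, do not say what the control cells received or whether they carry the tag, and refer to an earlier publication for culture and treatment. The level of YY1 was not measured here. The 8 samples form 4 profiles, control and dTAG in replicates 1 and 2, each made from an early and a late S-phase fraction of 40000 cells after a 2 h BrdU pulse. Each profile is a smoothed score every 5 kb, and every gene took the score at its midpoint. The first replicate carries no number in the labels and is called replicate 1 here.

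Most numbered Zfp genes encode C2H2 zinc finger proteins, and many of these carry a KRAB domain. KRAB zinc finger proteins bind DNA through a tandem array of fingers and recruit TRIM28, which brings the histone methyltransferase SETDB1 and silences retroelements and imprinted regions in embryonic stem cells. The genes multiplied by tandem duplication and sit in arrays of close relatives. The symbol does not guarantee this structure: Zfp36, for example, encodes tristetraprolin, an RNA-binding protein with CCCH fingers. Replication timing describes when in S phase a region is copied, and gene-rich open chromatin is usually early. YY1 is itself a zinc finger protein that binds promoters and enhancers.

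The file states neither the direction nor the log base of the score, and higher scores are read here as earlier replication. Ribosomal protein genes, a housekeeping group, averaged 3.58 ± 0.35 (SD, n = 4 profiles), and all 7 embryonic stem cell genes checked, among them Pou5f1, Sox2 and Nanog, were above 0 in every profile. For dTAG replicate 1 the letter in the titles and the labelled fraction disagree on which sample is early. The ribosomal protein genes averaged 3.81, 3.93, 3.39 and 3.19 in control 1, dTAG 1, control 2 and dTAG 2. The sorted scores of the profiles with one replicate number agree to within 0.000114, while the mean over all positions is 0.199 in replicate 1 and -0.199 in replicate 2. The sorted scores of dTAG 1 with the sign turned match those of dTAG 2 to within 0.000117, so the distributions of the replicate numbers are mirror images. Values are therefore given by replicate number throughout, always in the order control 1, dTAG 1, control 2, dTAG 2. Read depth is unknown, and the labels do not say whether replicates came from separate cultures, so spreads may be technical.

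The Zfp genes replicated early as a group. The mean score of the 211 genes was 3.58, 3.67, 3.45 and 3.41 in the 4 profiles, against 2.42, 2.42, 1.98 and 1.91 for the 21523 protein-coding genes with a score. The difference was 1.34 ± 0.16 (SD, n = 4 profiles) and was positive in all 4 profiles. The exact sign-flip test over profiles gave a two-sided p of 0.125, the smallest that 4 profiles allow. Of the 211 genes 208 were above 0 in every profile, against 16670 of the 21523 scored protein-coding genes. A mean above 3 was found in 79.6% of the 211, against 54.5% of all protein-coding genes. The median gene scored 3.72, the middle 50% of genes lay between 3.32 and 4.08, and the whole range was -1.12 to 4.96. Over all protein-coding genes the median was 3.25, so the medians lay closer than the means. The lead by median did not hold on every chromosome. Zfp genes and all scored protein-coding genes had medians of 3.44 and 3.19 on chromosome 2, 3.92 and 3.24 on chromosome 7, and 3.88 and 2.53 on chromosome 13. They were nearly level on chromosome 8, at 3.63 and 3.60. On chromosome 17 the Zfp genes were lower, at 3.30 against 3.74.

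The genes on these 5 chromosomes were earlier than the 155 numbered Zfp genes on the other chromosomes, which averaged 3.01, 2.996, 2.82 and 2.79. That difference was 0.62 ± 0.04 (SD, n = 4 profiles), positive in all 4 profiles, with the same smallest exact p of 0.125 in the sign-flip test. The median genes of these 2 groups lay closer, at 3.72 and 3.46. Other large tandem families on the same 5 chromosomes sat at the opposite end of the scale. The 594 olfactory receptor genes (Olfr) averaged -1.11, -0.92, -1.64 and -1.33. The 173 vomeronasal type 1 receptor genes (Vmn1r) averaged -1.09, -0.93, -1.17 and -0.88, and the 83 type 2 genes (Vmn2r) averaged -1.82, -1.71, -1.52 and -1.37. These families encode odorant and pheromone receptors of sensory neurons. Mean differences from the Zfp genes were 4.78 ± 0.22, 4.54 ± 0.18 and 5.13 ± 0.31 (SD, n = 4 profiles), each positive in all 4 profiles (exact sign-flip p = 0.125 for each). Tandem families on the same chromosomes thus lay on both sides of 0.

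**Figure D1:**
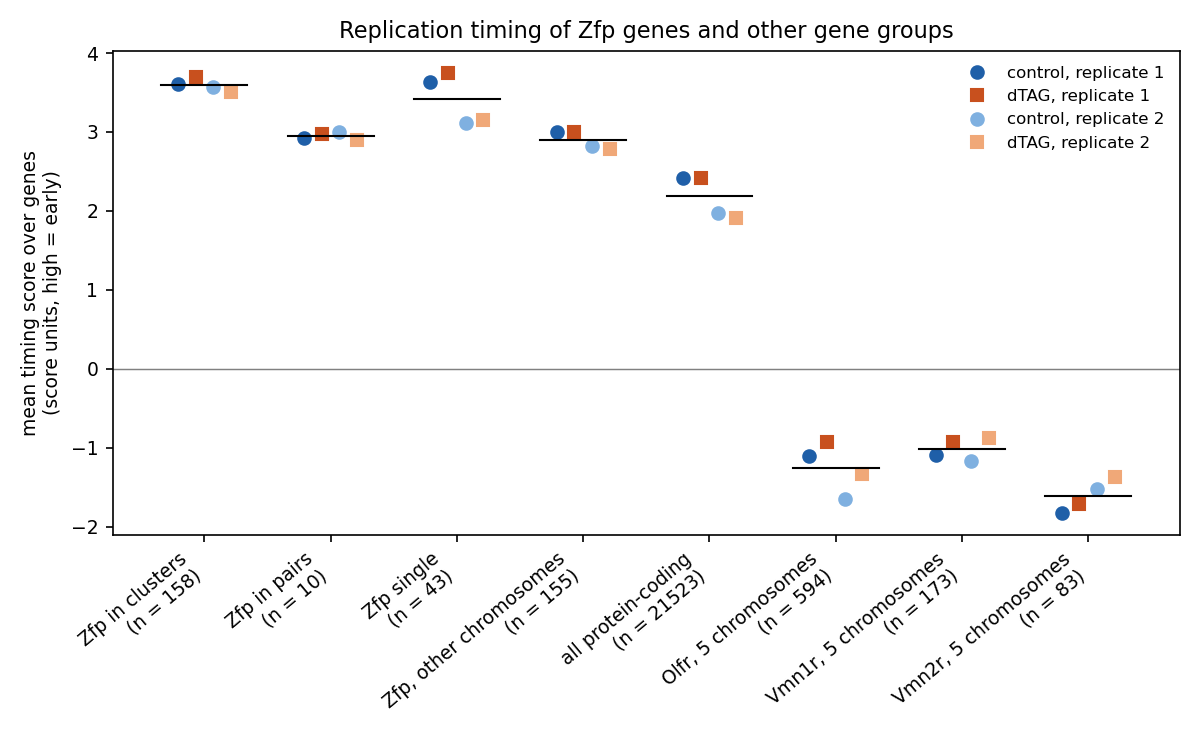
Mean timing score over genes (vertical axis, score units, high read as early) for Zfp genes by class and for other gene groups; each point is 1 profile and each black line the mean of the 4 profiles. The 3 Zfp classes lie between 2.90 and 3.75 in every profile, all above the protein-coding mean, and the receptor families lie below -0.8.

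All 19 clusters had a mean score above 0 in all 4 profiles. The cluster means over the profiles ran from 2.12 to 4.77 with a median of 3.73, and 15 clusters, with 120 genes, were above 3. The earliest was on chromosome 7 at chr7:4915181-5053723, with 6 genes from Zfp628 to Zfp580 that averaged 4.98, 5.26, 4.81 and 4.03. The 500 kb on its left averaged 3.92 and the 500 kb on its right 1.27. The latest by mean lay close by, at chr7:7114683-7209998, where Zfp954, Zfp773, Zfp418 and Zfp772 averaged 1.63, 2.02, 2.34 and 2.49. Within it the score fell along the array, from 2.45 at Zfp954 to 1.64 at Zfp772, toward a right flank at -1.27.

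**Figure D2:**
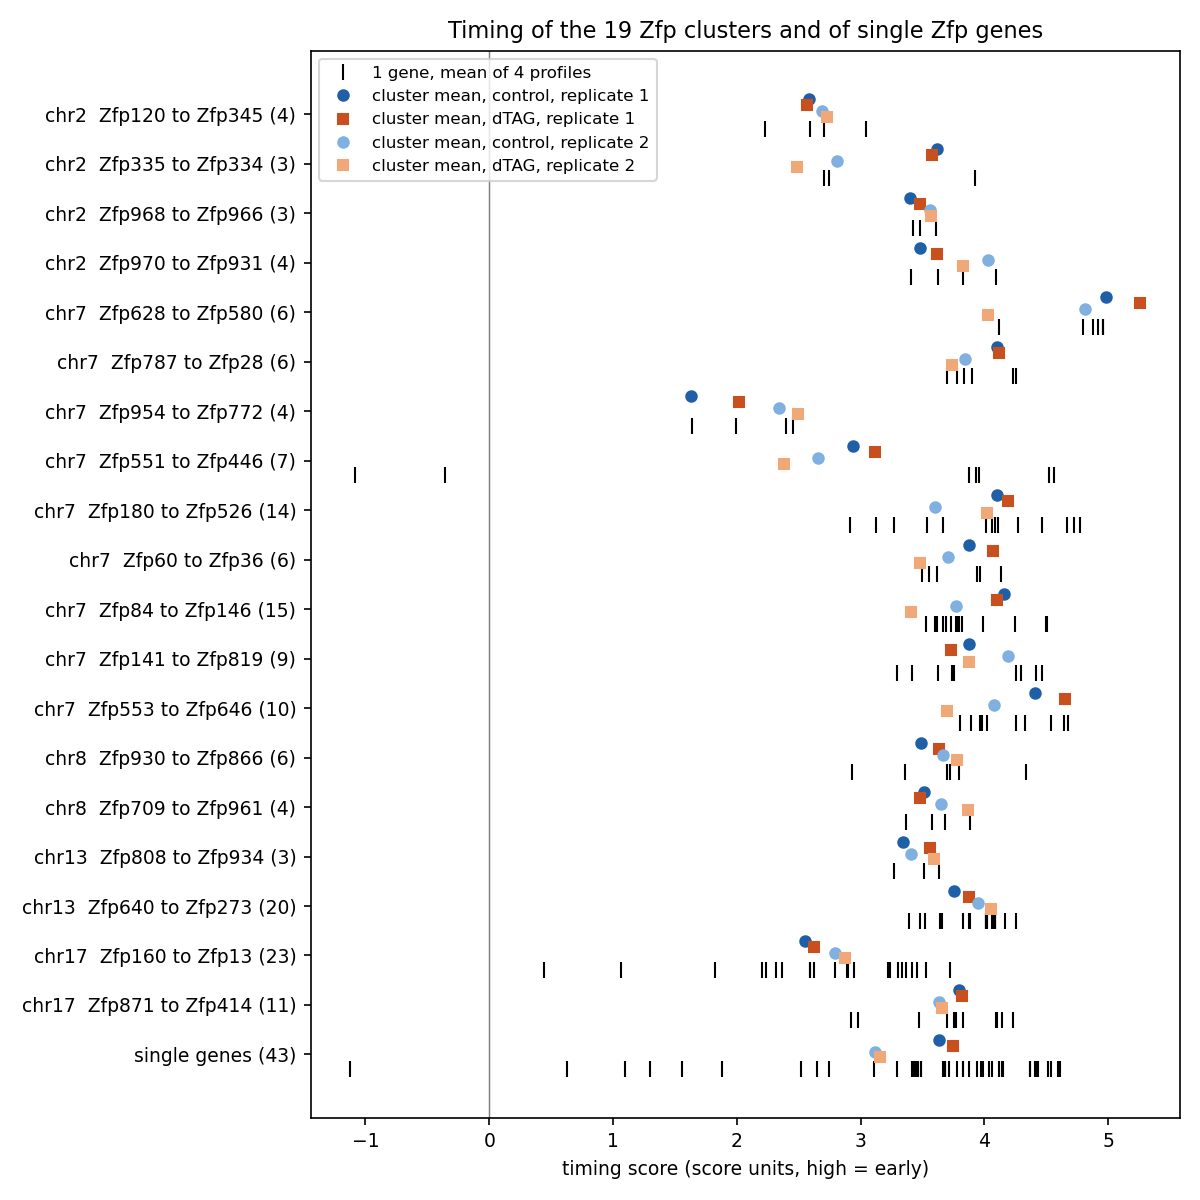
Timing scores (horizontal axis, score units, high read as early) of the 19 clusters and of the single genes, with the number of genes in parentheses; black ticks are genes (mean of 4 profiles) and coloured symbols are the means in each profile. All cluster means are above 0, and ticks below 0 occur in the cluster from Zfp551 to Zfp446 and, for 1 gene, among the single genes.

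Genes within a cluster were usually close in timing. The range of gene means within a cluster had a median of 0.87, was under 1 in 12 clusters, and was over 2 in 2 clusters. The smallest range was 0.19, for Zfp968, Zfp965 and Zfp966 at chr2:175372034-175931100. Smoothing by the authors makes neighbouring positions share reads, so neighbours are not independent measurements. Of the 19 clusters 6 were above both 500 kb flanks in all 4 profiles, 7 were above 1 flank, and 6 were above neither. These counts do not sort the arrays into peaks and edges. The array at chr13:62129857-62579321, above both flanks, was at 3.47 against 3.32 and 3.17. The array at chr7:127233061-127885996, above 1 flank, lay between early flanks at 4.48 and 3.54. By mean over the profiles the array at chr8:71882068-71970333 was below both flanks, at 3.63 against 4.20 and 3.90.

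On chromosome 13 the array at chr13:66670274-67827000 holds 20 genes from Zfp640 to Zfp273 and averaged 3.76, 3.88, 3.95 and 4.06. It was above both flanks, at 3.38 on the left and 1.33 on the right. Its genes ran from 3.39 for Zfp640 to 4.26 for Zfp712, which scored 3.87, 4.06, 4.54 and 4.57. The smaller array on the same chromosome at chr13:62129857-62579321, with Zfp808, Zfp935 and Zfp934, averaged 3.34, 3.56, 3.40 and 3.59. Both arrays were early in a chromosome whose 829 scored protein-coding genes averaged 1.78.

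Chromosome 7 holds 77 of the clustered genes in 9 arrays. The array of 15 genes at chr7:29768552-30169775, from Zfp84 to Zfp146, has no other scored protein-coding gene inside it and averaged 4.16, 4.10, 3.77 and 3.40. It contains Zfp568, a KRAB zinc finger gene whose protein represses a placental transcript of Igf2, at 3.94, 3.94, 3.48 and 3.09. In the array of 10 genes at chr7:127233061-127885996 the highest was Zfp747 at 4.75, 4.90, 4.82 and 4.24. The array of 6 genes at chr7:27731409-28379228 ends with Zfp36, at 4.56, 5.20, 3.58 and 3.18, whose product destabilises mRNAs with AU-rich elements. In Zfp36 both replicate 1 profiles were above both replicate 2 profiles, so its spread followed the replicate number.

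On chromosome 8 the 6 genes at chr8:69209018-69774911 averaged 3.49, 3.64, 3.67 and 3.78, with Zfp930 highest at 4.34 and Zfp868 lowest at 2.93. The 4 genes at chr8:71882068-71970333 averaged 3.51, 3.48, 3.65 and 3.87. On chromosome 2 the array at chr2:150114407-150485063 was among the later ones, at 2.58, 2.56, 2.69 and 2.73, from Zfp120 at 2.23 to Zfp937 at 3.04. Its left flank averaged -0.32 and its right flank 3.07. The array with Zfp335, Zfp663 and Zfp334 changed most between replicate numbers, at 3.62, 3.58, 2.81 and 2.49. Zfp335, which encodes a factor needed in neural progenitors, scored 4.53, 4.55, 3.54 and 3.07 there, and Zfp334 scored 3.15, 3.07, 2.42 and 2.18.

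A pair of clusters spanned wide ranges of timing, and one of them crossed 0. At chr7:12412549-12985717 the first genes were below 0: Zfp551 scored -0.86, -0.74, -1.25 and -1.50, and Zfp606 scored -0.22, -0.11, -0.57 and -0.52. The next member, Zfp329, lay 324 kb further on and scored 3.97, 3.89, 3.87 and 4.09. The step of 4.31 score units between Zfp606 and Zfp329 was present in every profile. Zfp110, which encodes a protein that binds the p75 neurotrophin receptor, was the highest at 4.75, 4.70, 4.35 and 4.46. Between Zfp606 and Zfp329 lie 2900092C05Rik at a mean of 0.33, then Vmn2r53, Vmn2r54, Vmn2r55 and Vmn2r56 at means of 1.13 to 2.63, and Zscan18 at 3.68. The 500 kb to the left of the array averaged -2.77.

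The largest array, at chr17:21008941-23599755, holds 23 Zfp genes over 2591 kb. Its first gene, Zfp160, scored 1.19, 1.21, 0.94 and 0.92. Scores rose from 2.20 at Zfp677, the next member, to a local peak at Zfp760, at 3.29, 3.27, 3.66 and 3.89. From there they fell to 1.82 at Zfp945 and to Zfp40, the lowest, at 0.41, 0.49, 0.30 and 0.56. Zfp13, at the far end, scored 3.81, 4.14, 3.62 and 3.32. The step from Zfp40 to its neighbour Zfp213 was 2.93 score units over 377 kb. The array lies between a late left flank at -1.44 and an early right flank at 4.48.

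**Figure D3:**
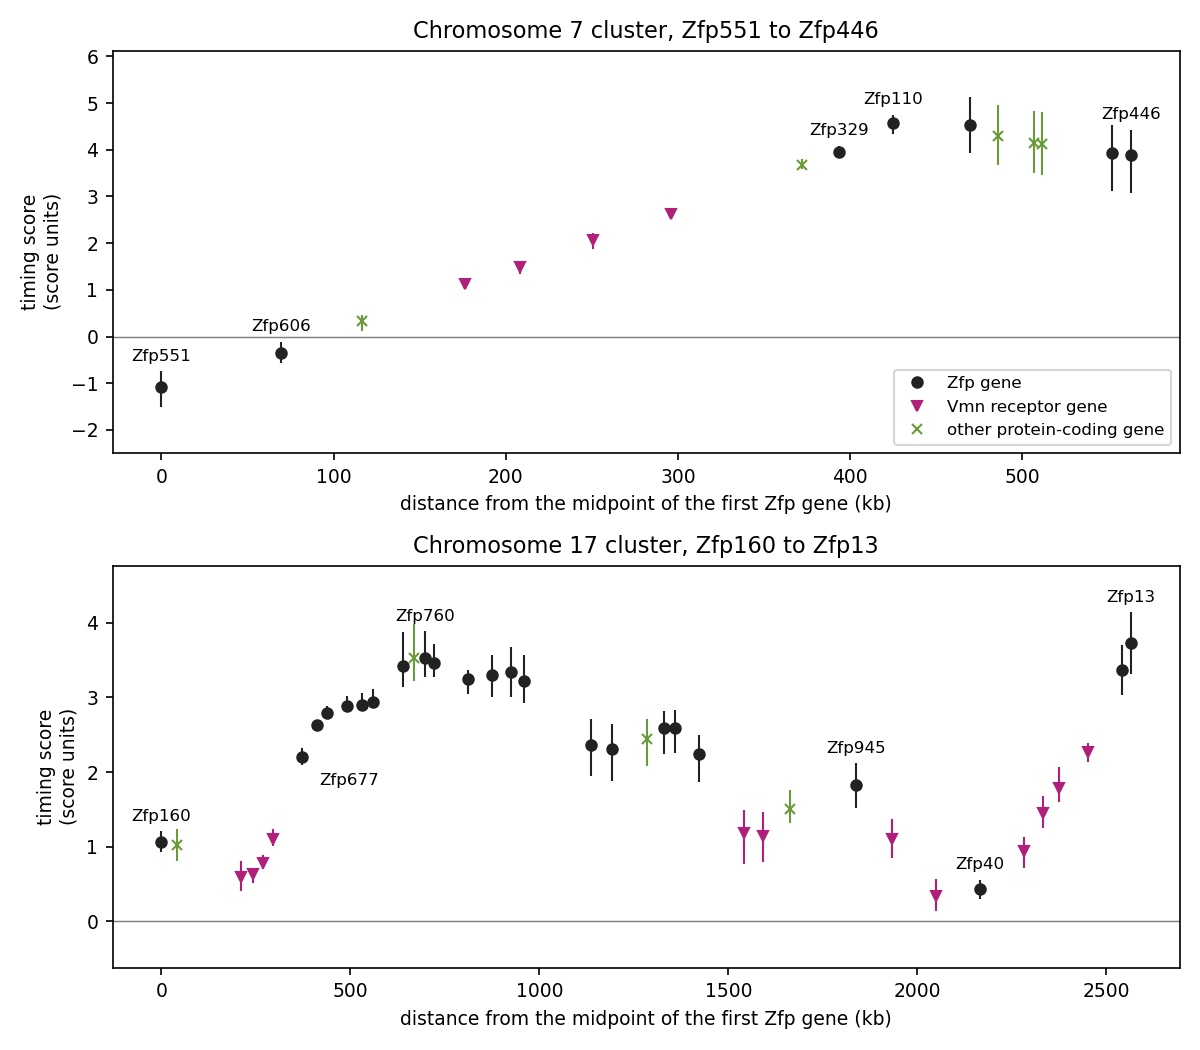
Timing scores (vertical axis, score units) of all scored protein-coding genes in the clusters from Zfp551 to Zfp446 and from Zfp160 to Zfp13, by distance from the midpoint of the first Zfp gene (kb); symbols are means and lines span the lowest to the highest of the 4 profiles. Vomeronasal receptor genes lie in the troughs and on the slopes, at means of 0.33 to 2.63, and most Zfp genes lie above them.

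Receptor genes inside the spans could be compared with the Zfp genes around them. Inside 4 of the clusters lay 23 olfactory or vomeronasal receptor genes. In the array from Zfp160 to Zfp13 the 12 Vmn genes averaged 1.01, 1.07, 1.09 and 1.29, against 2.55, 2.63, 2.80 and 2.87 for the 23 Zfp genes. In the array from Zfp551 to Zfp446 the 4 Vmn2r genes averaged 1.71, 1.84, 1.81 and 1.95, against 2.94, 3.12, 2.66 and 2.38. In the array on chromosome 7 from Zfp141 to Zfp819 the 3 Vmn2r genes were at 3.27, 3.37, 3.55 and 3.68, against 3.88, 3.73, 4.19 and 3.87. In the array at chr17:32765496-33631716 the 4 Olfr genes were at 3.08, 2.86, 3.33 and 3.33, against 3.80, 3.82, 3.64 and 3.66. Averaged over the 4 clusters the Zfp genes were higher by 0.89 ± 0.19 (SD, n = 4 profiles), in all 4 profiles (exact sign-flip p = 0.125, the smallest possible). This difference of means did not hold for every gene. Zfp551 and Zfp606, at means of -1.09 and -0.36, were below all 4 Vmn2r genes of their array. Zfp40 and Zfp160, at 0.44 and 1.06, were below the Vmn mean of 1.11 in their array. Zfp81 and Zfp101, at 2.93 and 2.98, were below the lowest Olfr gene of their array, at 3.05. Zfp141, at 3.30, was below the lowest Vmn2r gene of its array, at 3.36. The receptor genes inside these arrays averaged above 0, and their families as a whole averaged below 0.

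Clustered and single Zfp genes did not differ beyond the spread between profiles. The 158 clustered genes averaged 3.60, 3.69, 3.57 and 3.51, and the 43 single genes 3.64, 3.75, 3.12 and 3.16. The difference, clustered minus single, was 0.18 ± 0.26 (SD, n = 4 profiles; two-sided exact sign-flip p = 0.5). It was -0.03 and -0.06 in the replicate 1 profiles and 0.45 and 0.35 in those of replicate 2, so it did not hold within replicate 1. With the median over genes in place of the class mean the difference was 0.02. The 5 pairs averaged 2.92, 2.97, 2.997 and 2.90; the lowest was Zfp939 with Zfp619 at 1.45 and the highest Zfp72 with Zfp825 at 3.82.

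The classes differed in how far their scores moved between replicate numbers, whose distributions are mirror images, so a fall in score is not by itself a change in timing. Single genes scored lower in replicate 2 than in replicate 1 by a mean of 0.56, close to the fall of 0.47 over all protein-coding genes, whereas clustered genes fell by 0.11. A higher score in replicate 2 was seen for 77 of 158 clustered genes (48.7%), 5 of 43 single genes (11.6%) and 16.9% of all protein-coding genes. The change in the class difference was 0.45, and the exact permutation of replicate 2 against replicate 1 gave p = 0.333, the smallest it allows. Among clusters the replicate difference ran from -0.95 to 0.59, with 10 clusters higher and 9 lower in replicate 2. It tended to be lower where more protein-coding genes lay within 500 kb, with Pearson r = -0.51 and Spearman rho = -0.47 over 19 clusters. The lowest cluster, from Zfp335 to Zfp334, went against this, with a median of 16 such genes. Over the 211 genes taken singly r was weaker, at -0.29. With the median GC content of the members' promoters r was -0.52 over the 19 clusters. These correlations are across clusters that share the same 4 profiles, and the part of gene density or base composition in the result was not tested.

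**Figure D4:**
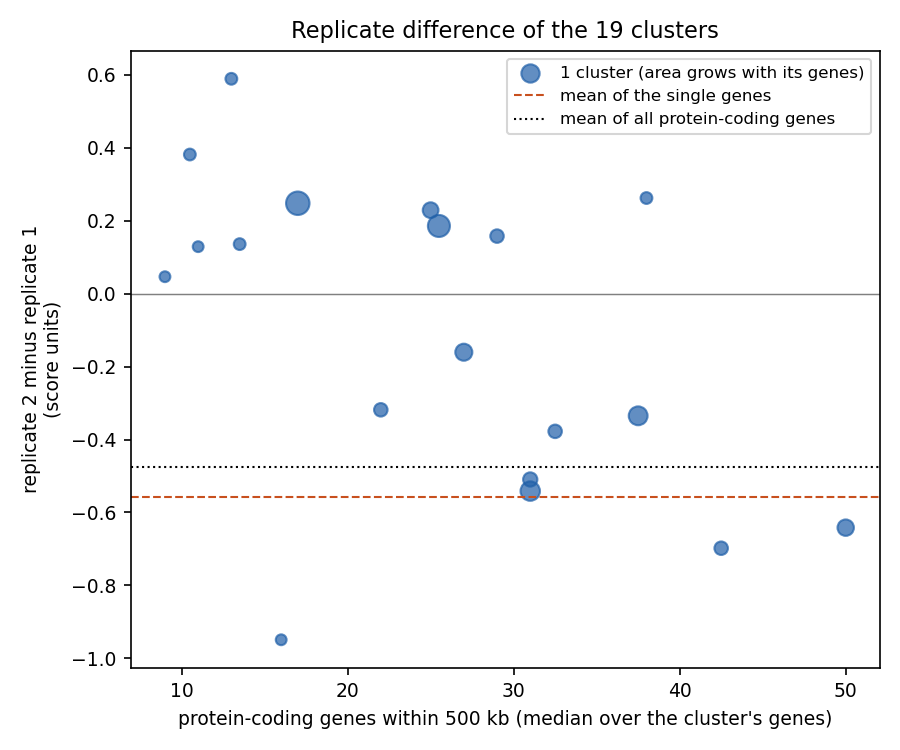
Replicate 2 minus replicate 1 (vertical axis, score units, mean of control and dTAG) for each of the 19 clusters against the median number of protein-coding genes within 500 kb of its members; dashed and dotted lines are the means of the single genes and of all protein-coding genes. The values run from -0.95 to 0.59. The cluster with the most neighbours, at a median of 50, is at -0.64, and the lowest cluster, from Zfp335 to Zfp334, has a median of 16.

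The single genes include factors with well-studied roles. The 3 latest single genes had 1 to 10 protein-coding neighbours within 500 kb, against a median of 20 for the class. Few neighbours also occurred among early single genes: Zfp217 had 4 at a mean score of 4.37, and Zfp367 had 9 at 4.51. Zfp330, which encodes a nucleolar protein, was the latest of the 211 genes at -0.92, -1.14, -0.76 and -1.66. Zfp831 scored 0.97, 1.07, 0.12 and 0.33. Zfp536, a repressor of neuronal differentiation, scored 1.51, 1.58, 0.44 and 0.86. Zfp423, which encodes a many-fingered factor of neural and fat cell development, scored 2.88, 1.97, 0.81 and 0.58. At the other end of the class the 3 highest genes had means of 4.54 to 4.61, below Zfp865, the highest gene of the earliest cluster, at 4.96. Zfp318 scored 4.35, 4.99, 4.32 and 4.77, Zfp184 scored 4.64, 4.68, 3.46 and 5.60, and Zfp358 scored 4.85, 5.07, 4.35 and 3.89.

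The other 4 single genes chosen for their known functions were early. Zfp57, whose protein maintains methylation at imprinted regions, scored 4.17, 4.66, 3.09 and 2.93. Zfp143, a promoter-binding activator, scored 4.02, 4.46, 3.52 and 3.32. Zfp217, which encodes a partner of the CoREST corepressor, scored 5.10, 4.75, 4.04 and 3.60. Zfp598, an E3 ubiquitin ligase that senses collided ribosomes, scored 4.22, 4.95, 3.54 and 3.08. In each of these 4 genes both replicate 1 profiles were higher than both replicate 2 profiles.

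The class means in dTAG and control differed by less than the spread between profiles. The clustered genes averaged 3.59 ± 0.03 in control and 3.60 ± 0.13 in dTAG (SD, n = 2 profiles each), a difference of 0.01, and the exact permutation of 2 against 2 profiles gave p = 1. Within replicate 1 the difference was 0.09, and within replicate 2 it was -0.06. The single genes averaged 3.38 ± 0.37 in control and 3.45 ± 0.42 in dTAG (SD, n = 2 profiles each), a difference of 0.08, at 0.11 within replicate 1 and 0.04 within replicate 2 (exact permutation p = 0.667). The difference between the classes in this response was -0.06 (exact permutation p = 0.667). The smallest p this design allows is 0.333, so these tests could not pass a threshold of 0.05, and they do not show that the groups were alike.

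By cluster the difference between dTAG and control ran from -0.25 to 0.27. It was positive within both replicate numbers in 8 clusters, negative within both in 3, and of opposite sign in 8, of which 6 were higher in dTAG in replicate 1 and lower in replicate 2. The largest opposite pair was in the earliest cluster, from Zfp628 to Zfp580, at 0.28 in replicate 1 and -0.78 in replicate 2. In the latest cluster, from Zfp954 to Zfp772, dTAG was higher in both, by 0.39 and 0.15. Both arrays on chromosome 13 were higher in dTAG, by 0.12 and 0.11 in the array of 20 genes and by 0.22 and 0.19 in the array of 3. All scored protein-coding genes of chromosome 13 were higher in dTAG by 0.05 in replicate 1 and 0.26 in replicate 2, and the part of the chromosome in the arrays' values was not tested.

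Gene by gene, no Zfp gene passed the test. With limma fitted to all 21523 scored protein-coding genes and Benjamini-Hochberg adjustment, 0 genes were called (0%), 0 of them Zfp genes; at an unadjusted p under 0.05 limma gave 171 genes and 0 Zfp genes. With the replicate number as a block and a trended, robust variance, limma called 2.60% of all genes and 1 Zfp gene, Zfp827, with an adjusted p of 0.00681. Zfp827, a single gene on chromosome 8 whose human counterpart encodes a telomere-associated zinc finger protein, scored 3.06, 2.51, 2.63 and 1.90. Its dTAG profile was lower by 0.55 in replicate 1 and 0.74 in replicate 2, and the nearest dTAG and control values were 2.51 and 2.63. In the fit without the block its difference was -0.64 ± 0.39 (SE), with an adjusted limma p of 1.

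A shift with both dTAG profiles at least 0.5 above or below both controls was found in 0 of 211 Zfp genes. Over all scored protein-coding genes such a shift was found upward in 0.325% and downward in 0.776%. With no minimum distance, dTAG was above control in every pairing of profiles in 35 Zfp genes (16.6%), against 10.0% of all genes, and below in every pairing in 10 (4.74%), against 8.42% of all genes. These genes were not spread evenly. Of the 35 genes 10 lay in a run of neighbours from Zfp180 to Zfp94 on chromosome 7, and 9 in the chromosome 13 arrays, so they share smoothed scores.

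In the run from Zfp180 to Zfp94 at the left end of the 14-gene array at chr7:24081877-25227876, the dTAG profiles were higher mainly in replicate 2. Zfp61 scored 4.70, 4.73, 4.07 and 5.18, a difference of 0.03 in replicate 1 and 1.11 in replicate 2. Zfp94 scored 4.84, 4.90, 4.14 and 5.20. Zfp180, the lowest gene of the array, scored 2.95, 3.02, 2.59 and 3.12. For the whole array the difference was 0.09 and 0.42. The other protein-coding genes inside the span differed by -0.11 and -0.13, and the 500 kb to the left by 0.37 and 0.79.

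At the right end of the array at chr7:42473386-43618279 a run of 4 neighbours was lower in dTAG. Zfp658 scored 4.50, 3.81, 5.13 and 4.44, lower in dTAG by 0.69 in both replicate numbers. Zfp719, next to it, scored 4.50, 3.79, 4.98 and 4.41, and Zfp819 scored 4.45, 3.74, 4.59 and 4.24. Zfp715, on the other side, scored 4.09, 3.95, 5.09 and 4.06. The groups did not overlap in any of the 4 genes, but the nearest values of Zfp658 were 4.44 in dTAG and 4.50 in control. At the other end of the same array Zfp141 moved the opposite way, at 3.17, 3.28, 3.25 and 3.48. With the replicate block, 5 Zfp genes had an unadjusted limma p under 0.05, namely Zfp318, Zfp658, Zfp719, Zfp819 and Zfp827, against 7.68% of all genes, and none passed adjustment (smallest adjusted p among Zfp genes 0.58).

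Among the single genes the biggest difference was that of Zfp184 on chromosome 13, at 1.09, and it came from replicate 2, with 0.03 in replicate 1 and 2.15 in replicate 2. Without Zfp184 the difference of the single genes was 0.05. Zfp318, whose product acts in the alternative processing of immunoglobulin transcripts in B cells, was higher in dTAG by 0.63 and 0.44, and its groups were the farthest apart, with 4.77 as the lower dTAG value and 4.35 as the higher control value. Zfp367 scored 4.25, 5.15, 4.26 and 4.40. Zfp330 was lower in dTAG by 0.22 and 0.90. Differences of opposite sign were also large: Zfp628 was higher in dTAG by 1.27 in replicate 1 and lower by 0.39 in replicate 2, at 4.001, 5.27, 3.79 and 3.41.

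**Figure D5:**
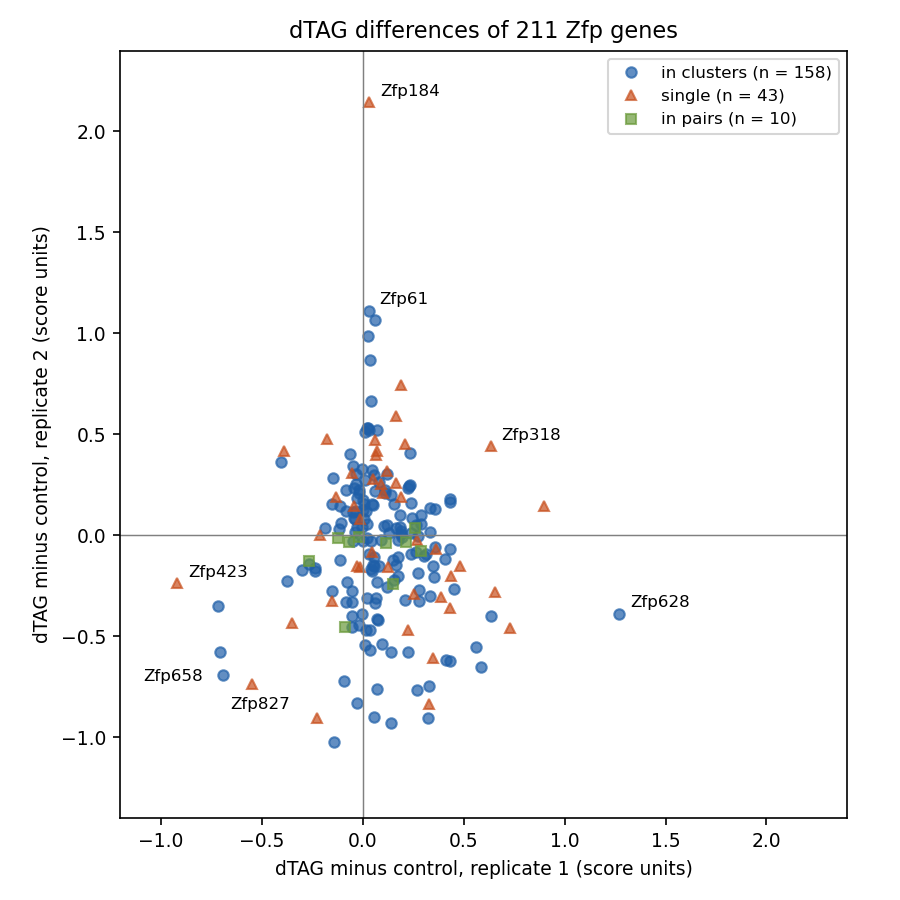
dTAG minus control in replicate 1 (horizontal axis) and in replicate 2 (vertical axis), in score units, for the 211 Zfp genes by class; each point is 1 gene. Points scatter around 0 in all 4 quadrants, and the labelled gene Zfp184 lies at 0.03 and 2.15.

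Genes of the silencing pathway that KRAB zinc finger proteins use were mostly early as well. Of 26 symbols listed 25 matched a gene. All 25 were above 0 in every profile, as were 16670 of the 21523 scored protein-coding genes. Their median was 3.82, against 3.25 over all scored protein-coding genes. Hells, Pphln1 and Suv39h2 were below 3.25. Trim28, the corepressor gene, scored 3.93, 3.96, 3.78 and 3.14, and Setdb1, the histone H3 lysine methyltransferase gene, scored 3.58, 3.81, 3.51 and 3.41. The lowest was Suv39h2 at 1.97, 2.10, 1.75 and 1.68, and the highest Chaf1a, a chromatin assembly factor gene, at 5.25, 5.24, 4.71 and 3.58. In Trim28 and Chaf1a the second dTAG profile was the lowest of the 4. The groups did not overlap in 3 of the 25 genes, 2 higher and 1 lower in dTAG, and in 0 of them by 0.5 or more; over all scored protein-coding genes the groups did not overlap in 18.5%.

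Promoter sequences let the YY1 core be set beside these timing values. RefSeq windows of 300 bases, 250 before to 50 after a start on GRCm38.p6, were given for 187 of the 211 genes. The core was searched as GCCATNTT on both strands, where N is any base and the reverse reads AANATGGC; it contains the shorter CCATNTT (reverse AANATGG). The longer core was present in 29 of the 187 genes (15.5%), against 7.53% of 17274 protein-coding genes with a window. The share was 10.3% among the Zfp genes of the other chromosomes and 18.3% among ribosomal protein genes, so a raised share was not particular to the Zfp genes. Some of the 29 genes are relatives with near-identical sites and are not independent. Clustered and single genes had it at similar shares, 16.1% and 16.7%. By window the share was 13.2% among Zfp genes and 6.41% among all 21045 windows. The shorter core was in 19.6% of the Zfp windows and 15.1% of all windows. A match is a description of the letters and says nothing of binding.

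Some neighbours in a cluster carried the core in like surroundings. Among 21 pairs of sites in different genes of one cluster and with one orientation, 7 were identical at 18 or more of 30 bases, with a median of 15. The 30 bases include the core, whose fixed letters match in every pair because the sites were found by them. How many matches unrelated sites would give was not tested. The sites below are 5 of these 7 pairs, shown because each joins genes not in another printed pair; the Zfp617 site also matched a second Zfp882 site at 20 bases, and the Zfp763 site matched one of Zfp871 at 18. Each site is 30 bases, 5′ to 3′ on the gene's strand, with the core in capitals. They lie at chr7:42592537-42592566 (minus strand), chr7:43177574-43177603 (plus), chr7:127376102-127376131 (minus), chr7:127406881-127406910 (minus), chr8:71922829-71922858 (plus), chr8:71908592-71908621 (plus), chr17:32965800-32965829 (plus), chr17:33033379-33033408 (minus), chr8:69774882-69774911 (minus) and chr8:69625521-69625550 (minus), in the order printed, all in mm10.
Zfp977: tgcttccgggcGCCATGTTgctggttcaat
Zfp936: tgcttccgggcGCCATGTTgctggttcaat
Zfp747: tagactctgtgGCCATTTTggttgagggct
Zfp764: tagactctgtgGCCATTTTtgatgagggct
Zfp617: gttcctcacccGCCATCTTtcttgctggcg
Zfp882: gttcttcacccGCCATCTTtcttcctggca
Zfp472: gctcccttgccGCCATATTtgagttccggg
Zfp763: ccgcccttgccGCCATGTTtgagtcctgtg
Zfp866: tcttcacggccGCCATATTgtggctcggct
Zfp868: tcttttcggccGCCATGTTagctaaaggtt

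The Zfp977 and Zfp936 sites were identical at all 30 bases although 585 kb separate them in the array from Zfp141 to Zfp819. The Zfp747 and Zfp764 sites were identical at 28 bases, the Zfp617 and Zfp882 sites at 27, the Zfp472 and Zfp763 sites at 24, and the Zfp866 and Zfp868 sites at 19. These genes scored above 0 in every profile. The medians over all scored protein-coding genes were 3.37, 3.35, 3.10 and 3.03. Zfp977 scored 3.54, 3.78, 3.64 and 3.54, and Zfp936 scored 3.34, 3.51, 3.43 and 3.40. Zfp764 scored 4.56, 4.84, 4.55 and 4.22, beside Zfp747 given above. Zfp868 scored 2.72, 2.89, 3.04 and 3.08, lower than Zfp866 at 3.71, 4.04, 3.72 and 3.73.

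Genes with the core did not differ from the others in the response to dTAG beyond the spread between profiles. The median difference between dTAG and control was 0.03 in the 29 genes with the core and 0.04 in the 158 genes without it. The difference of the class means in this response was -0.02 (exact permutation of 2 against 2 profiles, p = 0.667). The late gene Zfp606 carries the core, shown because it is the one member below 0 with a site, at chr7:12478219-12478248 (plus strand), where the core reads in reverse. Zfp318, the gene whose groups were farthest apart, carries it at the far end of its window, at chr17:46383516-46383545 (plus strand).
Zfp606: aataggctctgAAAATGGCcttggccgact
Zfp318: cGCCATTTTgcgcggggccgaaaggcgggg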

How the data were processed

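Replication timing was measured in 8 samples that form 4 profiles. The submitters' processing notes name Bowtie2, SAMtools, bedtools and mm10, without versions. Per the file headers and name, the authors smoothed the deposited score with Loess and quantile normalized it; its formula and log base are not stated, so differences are in score units. Of 526745 positions 514245 had a score in all 4 profiles, and 4 with scores in some were left out. Genes and positions came from RefSeq on GRCm38.p6, the assembly of mm10; each gene took the nearest 5 kb position to its midpoint, and 108 protein-coding genes had no score.

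The score was tested with limma 3.58.1 in R 4.3.3 (group only, 2-sided, Benjamini-Hochberg over 21523 genes, threshold 0.05), which was also tested on simulated data. Class means were compared over profiles by exact sign-flip or permutation tests in Python 3.11.15 with scipy 1.17.1. Same-numbered profiles share a distribution, and whether same-numbered profiles share a culture is not stated in the labels. Members, gene lists and tests were chosen with earlier results of these data known, and the promoter motif and the pairs of sites after the scores were seen. Genes were named by rule: the highest and lowest of each cluster, the 3 highest and 3 lowest single genes, the 5 members with the largest difference in each direction among those with groups apart (at most 2 per cluster), and 10 by function; not all are printed, and neighbours, pairs and genes with printed sites were added after their values were seen. Zinc fingers per protein were planned and not run.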

Additional observations from a re-analysis of the deposited data

How the results depend on the processing

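The count of Zfp genes shifted by at least 0.5, which was 0, became 1 (Zfp318) with a minimum of 0.25 score units, 1 with all profiles forced to one distribution, and 2 to 19 when 1 of the 4 profiles was left out, each of which leaves a group with 1 profile; it was 0 at 1 score unit and over the 50 kb window. At 0.25 the shift was upward in 1.68% of all scored protein-coding genes and downward in 2.46%, against 0.474% and 0% of Zfp genes. No share over all genes is given with one distribution or with a profile left out. Those counts therefore cannot be read as many or few. The count called by limma became 1 (Zfp827) with the replicate block and trended, robust variance. It was 0 under the other 10 alternatives, the replicate block alone included (smallest adjusted p 0.58). The replicate block left the difference of the clustered genes at 0.01. Clustered minus single genes ranged from -0.05 (replicate 1 alone) to 0.40 (replicate 2 alone), with 0.37 for members under 250 kb apart and 0.08 with members of one 50 kb window counted once. The dTAG differences changed sign without 1 profile: from -0.08 to 0.10 for clustered genes, -0.22 to 0.37 for single genes and -0.30 to 0.18 between the classes. Leaving out 1 of 2 profiles in a group cannot, by arithmetic alone, move such a difference by more than 1 SD between profiles. The size of these changes is therefore no measure of stability. The median over genes gave -0.06 for single genes and 0.08 between the classes. With 2 profiles a group and unknown depth, small shifts could not be resolved. Replicate 1 alone, replicate 2 alone, the runs without Zfp184, the next 5 kb position, and the removal of clusters with late members were chosen after seeing the data.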
